A study of Mus musculus with 8 samples.

Results

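The core circadian clock genes of mouse primary visual cortex (V1) were followed through 20 deposited cell types in single-nucleus RNA sequencing (snRNA-seq) libraries from 4 groups of mice. The 10 genes were Arntl, Clock, Per1, Per2, Per3, Cry1, Cry2, Nr1d1, Nr1d2 and Dbp, chosen by name out of 26711 features. All mice were at postnatal day 21 (P21) and carried floxed alleles of Nr3c1, the gene of the glucocorticoid receptor (GR fl/fl). At birth they received an AAV2/5 vector with Cre under the GfaABC1D promoter (GR-KO), which also holds EGFP-CAAX and the elements 4x6T and WPRE, or the same vector with the inactive recombinase ΔCre (GR-Con), and they were then normal-reared (NR) or dark-reared (DR). Rearing and vector together gave 4 groups of 2 libraries each, 1 from a female and 1 from a male mouse. The GfaABC1D promoter is used to direct a vector to astrocytes. The study collected every animal in the same window of the clock day under red light, so a shift in the timing of a rhythm and a change in its mean level cannot be told apart here.

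The molecular clock is a feedback loop of transcription that runs in most mammalian cells. ARNTL (also called BMAL1) and CLOCK pair up on E-box sequences and switch on the Period (Per) and Cryptochrome (Cry) genes, whose proteins return to the nucleus and repress that pair. NR1D1 and NR1D2 (REV-ERBα and REV-ERBβ) form another loop by repressing Arntl through ROR elements, and DBP is an output factor that activates genes through D-boxes. The loop is set by light through the suprachiasmatic nucleus and, in peripheral cells and astrocytes, by glucocorticoids, for which Per1 is a classical direct target.

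The promoter sequences of the genes on which the results turn are shown first. RefSeq windows of GRCm38.p6 (250 bases before to 50 after a start site) were found for 9 of the 10 genes, 13 windows in all. The E-box CACGTG lay in a window of Per1, 166 bases before its start site, and in one of Cry1, 60 bases before its start site, against 7.15% of 32851 windows of all genes. That Per1 window (chr11:69098699-69098998) lies inside the Per1 gene as placed below. The other Per1 window (chr11:69099902-69100201) held no E-box. The D-box, written TTATGTAA or TTACGTAA, occurred in Per3 at 205 and 158 bases before the start site, and in 1.06% of all windows. The ROR element TAGGTCA was found 30 bases past the first base of the Arntl start site, and in 2.61% of all windows. No window of these genes held the cAMP element TGACGTCA (1.79% of all windows) or the glucocorticoid half-site AGAACA (19.0%). All motifs were searched on both strands, and a match or its absence is a description of these letters only. Shown are Per1 and Dbp, plus strand, as the genes that differed most by genotype and by rearing, Per3, minus strand, for its D-boxes, and 30 bases of Arntl, plus strand. Capitals mark the E-box, the D-boxes and the ROR element, and Dbp held no listed motif.
Per1, chr11:69098699-69098947: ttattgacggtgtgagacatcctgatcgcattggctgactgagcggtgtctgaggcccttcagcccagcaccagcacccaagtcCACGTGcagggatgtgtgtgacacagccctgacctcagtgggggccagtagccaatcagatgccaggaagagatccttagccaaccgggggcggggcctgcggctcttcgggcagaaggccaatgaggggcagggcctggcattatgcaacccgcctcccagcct
Dbp, chr7:45704997-45705087: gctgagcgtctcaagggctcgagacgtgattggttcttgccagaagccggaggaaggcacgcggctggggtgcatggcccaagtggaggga
Per3, chr4:151044666-151044915: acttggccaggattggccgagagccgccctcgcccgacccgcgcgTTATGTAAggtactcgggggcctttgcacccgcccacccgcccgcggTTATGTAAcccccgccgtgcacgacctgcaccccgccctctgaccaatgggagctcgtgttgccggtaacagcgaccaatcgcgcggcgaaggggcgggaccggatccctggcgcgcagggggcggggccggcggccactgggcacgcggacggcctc
Arntl, chr7:113207530-113207559: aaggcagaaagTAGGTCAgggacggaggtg

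In GENCODE vM21 coordinates (GRCm38), Arntl lies at chr7:113207465-113314126, Clock at chr5:76209868-76304792, Per1 at chr11:69095217-69109960, Per2 at chr1:91415982-91459324 and Per3 at chr4:151003652-151044665. Cry1 lies at chr10:85131700-85185064, Cry2 at chr2:92403646-92434043, Nr1d1 at chr11:98767932-98775333, Nr1d2 at chr14:18204054-18239127 and Dbp at chr7:45705088-45710203. Per3 overlaps Camta1 on the same strand, and Clock overlaps the gene models Ube2n-ps1 and Gm43658. Genes on the opposite strand overlap Arntl (Gm45355), Cry2 (D930015M05Rik), Nr1d1 (Thra) and Dbp (Sphk2). Counting used the defaults of Cell Ranger per the study's methods, which take in introns and reads of the sense strand only, so values of the genes that overlap on the same strand, Per3 and Clock, are uncertain.

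The 8 libraries held 102330 nuclei, 9517 to 15161 per library, with 168632129 to 288774016 unique molecular identifiers (UMIs) in each. UMIs were summed per library and deposited cell type and expressed as CPM, the count of a gene scaled to a common total per library and type. Of the 20 types, 15 had at least 10 nuclei in every library and were tested: 8 excitatory types (L2/3, L4, L5IT, L5PT, L5NP, L6IT, L6CT, L6b), 4 inhibitory types (Pvalb, Sst, Vip, Lamp5), astrocytes (Astro), oligodendrocyte precursors (OPC) and oligodendrocytes (Oligo). Of 66 listed markers 65 were found, and 52 of them were highest in the type they mark. The other 13 included Rorb, Rspo1 and Whrn in L4, Bcl6 and Pou3f1 in L5PT (whose marker Fam19a1 was the one not found), and Oprk1, Osr1 and Cdh13 in L6IT, so in those 3 types no listed marker was highest and their names rest on the deposited annotation. The remaining 5 were Stard8 for L2/3, Fezf2 and Etv1 for L5IT, Tle4 for L6CT and Reln for Sst. Of 101098 distinct barcode sequences, 1.21% occurred in 2 or more libraries.

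Cre UMIs were seen in astrocytes of all 4 GR-KO libraries (4.14 to 10.4 CPM) and in none of the GR-Con libraries. Nr3c1 in astrocytes ran from 207 to 263 CPM in GR-Con and from 268 to 284 CPM in GR-KO. The sources used here do not say which exon is flanked by loxP, and these are counts near the 3′ end, so they do not check the deletion. Nuclei with GFP signal were gated out by the sorter per the study's methods, and the share of astrocytes that were transduced was not measured here. From vector EGFP expression across the cell types of these data, the study concluded that its vectors were specific to astrocytes. Some libraries stood apart. In the NR GR-KO female library, Rorb read 173 CPM in Sst (7.66 to 20.3 CPM in the others) and 125 CPM in Vip (18.5 to 33.5 CPM). In Lamp5 it read 87.0 CPM there, against 7.84 to 22.9 CPM in the others. That library also had the highest median of UMIs per nucleus (29223) and 59 L5PT nuclei, against 384 to 504 in the others. In the NR GR-KO male library the immediate early genes, which report recent neuronal activity, summed to 332 CPM in excitatory types against 80.0 to 125 CPM in the other 7. In the DR GR-Con female library, astrocytes had the lowest Per3 of the 8 (89.0 CPM) and the lowest Per2 (32.3 CPM), with the highest Nr1d1 (49.4 CPM) and Clock (110 CPM). Values without these libraries are given where they change a call.

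Across the 15 types, astrocytes had the highest mean level of 8 of the 10 genes, all except Arntl and Clock. Levels are means ± SD over 8 libraries, compared across cell types within a gene only, and are a description without a test. The astrocyte range lay wholly above that of the next type for Per3, Cry2, Nr1d1, Nr1d2 and Dbp. How many of all genes are highest or separate in astrocytes was not counted, so these counts have no background to be read against. For Per1, Per2 and Cry1 the top of the order overlapped. Outside the 15 types, some sparse vascular types had higher means of these 8 genes than astrocytes. Per2 was higher in smooth muscle cells and pericytes (92.3 CPM) and Nr1d2 in vascular leptomeningeal cells (141 CPM). Cry1 was higher in endothelial cells (38.5 CPM), smooth muscle cells and pericytes (37.3 CPM) and vascular leptomeningeal cells (32.1 CPM). In bulk sums of nuclei, a level mixes the share of nuclei that express a gene and the amount in each.

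**Figure D1:**
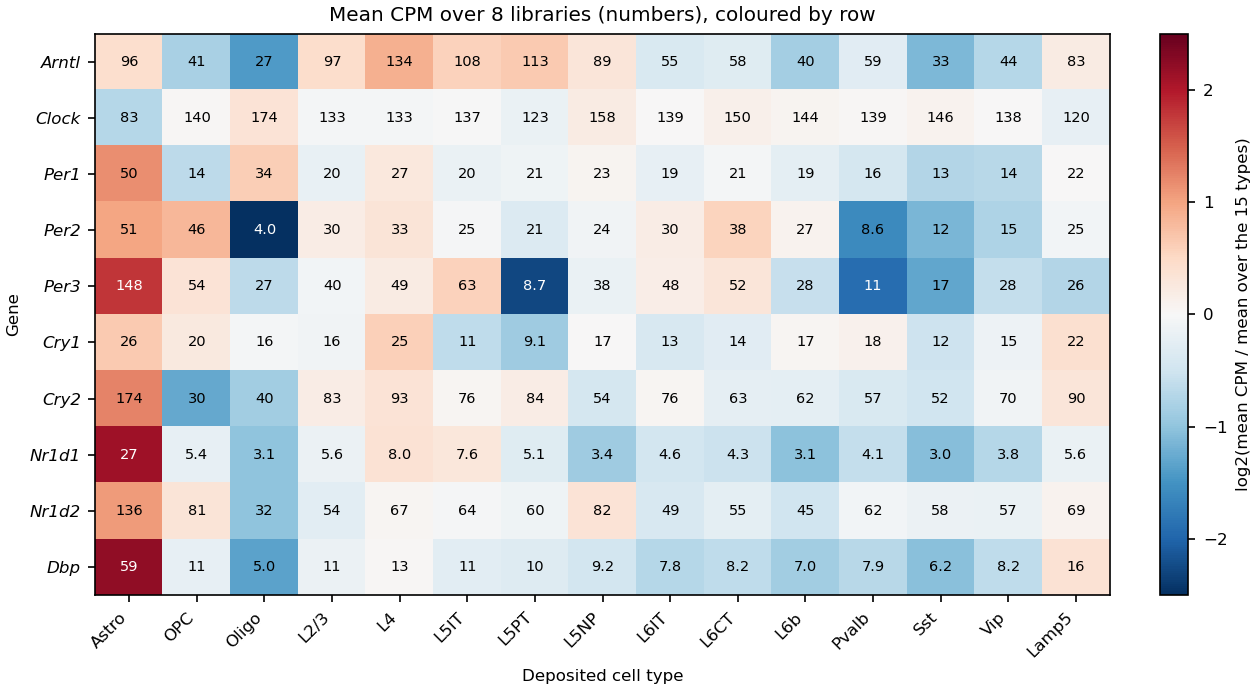
Mean CPM over 8 libraries (numbers) of each clock gene (rows) in the 15 cell types found in every library (columns). Colour is the log2 ratio of a type's mean to the gene's mean over the 15 types, so colours compare types within a row. Astrocytes stand at the top for Per1, Per2, Per3, Cry1, Cry2, Nr1d1, Nr1d2 and Dbp, L4 for Arntl and oligodendrocytes for Clock.

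The activators had other orders. Arntl was highest in L4 at 134 ± 12.2 CPM, followed by L5PT at 113 ± 13.4 CPM. Astrocytes were the fifth of its 15 types at 96.0 ± 16.7 CPM, close to L2/3 at 97.4 ± 20.3 CPM, and it was lowest in oligodendrocytes at 27.0 ± 5.85 CPM. It was graded within the neurons, since L6IT, L6CT and L6b (55.3, 58.4 and 40.1 CPM) lay below L4 and L5PT. Clock differed least across types. It was highest in oligodendrocytes at 174 ± 12.8 CPM and lowest in astrocytes at 83.1 ± 13.6 CPM, and no type was separate from its neighbour in the order.

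Among the repressors, Per3 showed the widest contrast. It reached 148 ± 31.0 CPM in astrocytes, with single libraries from 89.0 to 188 CPM, against 63.3 ± 9.60 CPM in L5IT, the next type, and 8.75 ± 0.937 CPM in L5PT. L5IT and L5PT are both projection neurons of layer 5 and lay at opposite ends of the neuronal order for this gene. Per2 was 51.2 ± 14.0 CPM in astrocytes and 46.1 ± 12.6 CPM in OPC but only 4.03 ± 1.31 CPM in oligodendrocytes, into which OPC mature. Per1 was 49.7 ± 14.2 CPM in astrocytes, 33.9 ± 5.39 CPM in oligodendrocytes and 13.3 ± 6.22 CPM in Sst, the lowest type. Per1 and Per2 were therefore ordered differently in the oligodendrocyte lineage. Per1 was 14.1 ± 1.86 CPM in OPC and higher in oligodendrocytes, while Per2 was higher in OPC.

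Cry2 was 174 ± 19.0 CPM in astrocytes, 93.2 ± 11.4 CPM in L4 and 30.3 ± 4.88 CPM in OPC. Cry1 was flatter, at 26.5 ± 3.38 CPM in astrocytes, 25.4 ± 5.01 CPM in L4 and 9.09 ± 1.87 CPM in L5PT, and its top place passed to L4 when each nucleus's own CPM was averaged. Of the nuclear receptors, Nr1d1 was 27.2 ± 11 CPM in astrocytes and 8.03 ± 1.34 CPM in L4, with a bottom of 2.98 ± 0.895 CPM in Sst. Nr1d2 was 136 ± 14.0 CPM in astrocytes, 81.6 ± 5.68 CPM in L5NP and 32.1 ± 6.93 CPM in oligodendrocytes. The output gene Dbp was 59.0 ± 18 CPM in astrocytes, 16.4 ± 5.55 CPM in Lamp5 and 5.02 ± 2.01 CPM in oligodendrocytes. Oligodendrocytes thus held the lowest mean of Arntl, Per2, Nr1d2 and Dbp and the highest of Clock.

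In pairs of the 10 genes over the mean log2(CPM + 1) of 20 types, Nr1d1 and Dbp (Pearson r = 0.85) and Nr1d2 and Dbp (0.85) were most alike, and Clock and Cry2 most unlike (−0.66). Of 16061 genes compared, the most alike to Dbp were Veph1 and Lrrc58 (both 0.91), to Per1 Ppp2r5a (0.91) and Mbd2 (0.87), to Per3 Coq10b (0.89) and Tef (0.88), and to Nr1d1 Sox9 (0.90), an astrocyte transcription factor, and A330076C08Rik (0.87). For Cry2 they were D930015M05Rik (0.90), which overlaps it, and Atxn7l2 (0.84). For Nr1d2 they were Lonrf3 (0.89) and Nt5c2 (0.87), for Per2 Pced1b and Gm11670 (both 0.87), and for Cry1 Cgrrf1 (0.87) and Pelo (0.85). Arntl was most like Rhobtb2 (0.82) and Fras1 (0.79), and Clock most like Shq1 and Znrf1 (both 0.80). The types share libraries, so these values describe the order of types. The 20 types include 5 too sparse to be tested. In 1 of them, chandelier cells, Per2 and Per3 rested on 2 UMIs each, Dbp and Nr1d1 on 4 each and Cry1 on 5. The r values of these genes are therefore uncertain.

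The comparison of DR with NR asks what the lack of light does to the clock genes. Over both genotypes (4 libraries against 4, genotype as a term, edgeR likelihood ratio test), 13 of 150 pairs of gene and cell type passed an adjusted p of 0.05, against 5.40% of all 212019 pairs of gene and type tested. In DR, 10 pairs were lower (background 2.70%) and 3 higher (background 2.69%). Dbp fell in 8 types, Per3 in L6IT and Lamp5, and Arntl rose in L2/3 and Clock in L4 and L6CT. Per1, Per2, Cry1, Cry2, Nr1d1 and Nr1d2 passed in no type. With the quasi-likelihood test 6 pairs passed (background 3.48%): Dbp in L4, Pvalb and OPC, Arntl in L2/3, and Clock in L4 and L6CT. Without the NR GR-Con female library 6 pairs passed (background 4.06%), and 4 and 5 without the DR GR-KO female (3.79%) and male (2.47%) libraries. The count was 17 without the NR GR-KO male (5.61%) and 15 without the DR GR-Con male library (6.08%). It was 12 without the NR GR-Con male (3.01%), and 11 without the NR GR-KO female (3.57%) or the DR GR-Con female library (4.55%).

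**Figure D2:**
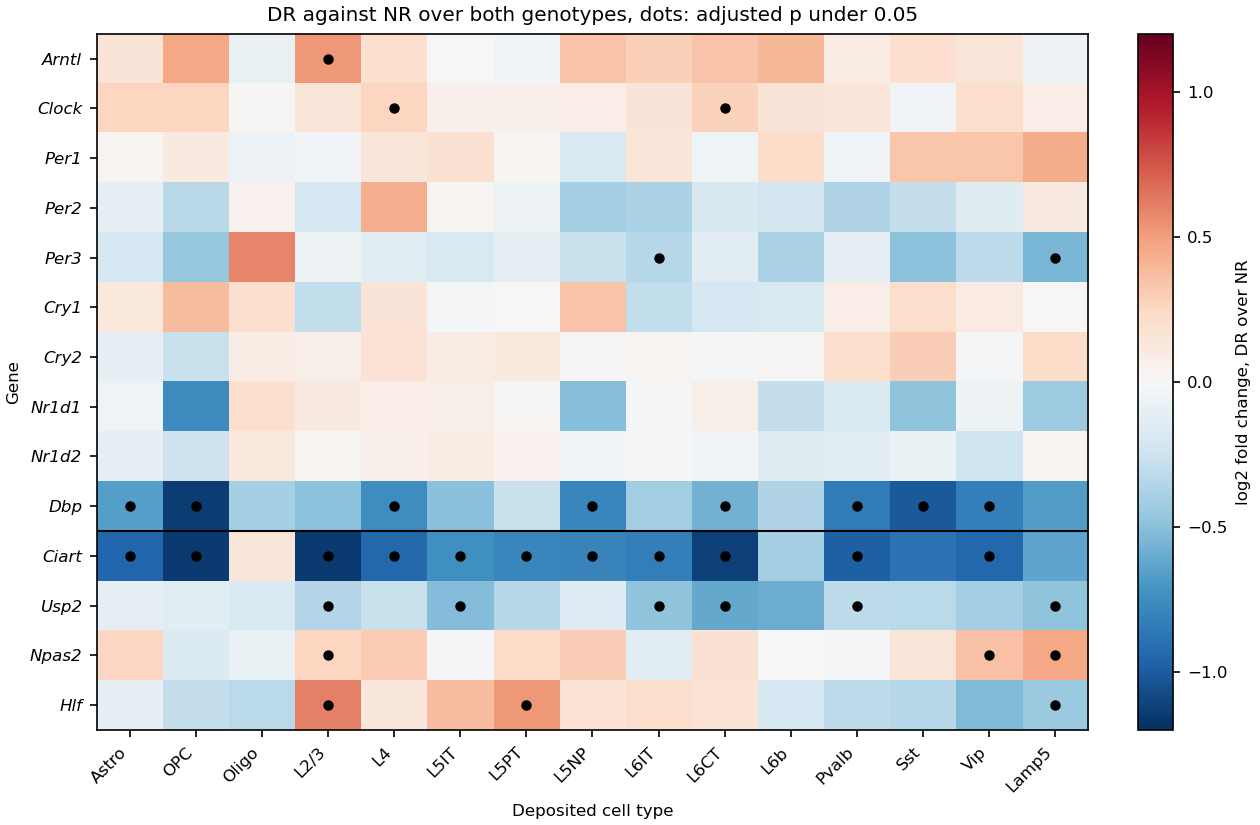
Log2 fold change of DR over NR (colour) for the 10 clock genes and, below the line, 4 related genes (rows) in 15 cell types (columns), with a dot where the adjusted p was under 0.05. The Dbp row is below 0 in all 15 types with 8 dots, and the Ciart row has 11 dots.

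Dbp was lower in DR in all 15 types by its estimate, with a median log2 fold change of −0.66. In L4 it read 17.8 and 12.6 CPM in NR GR-Con (female, then male) and 20.6 and 14.4 in NR GR-KO, against 8.12 and 8.83 in DR GR-Con and 9.92 and 11.2 in DR GR-KO. No DR library reached the lowest NR library (log2 fold change −0.75, SE 0.16, adjusted p = 0.000176). In Pvalb interneurons the values were 10.6, 10.9, 11.6 and 7.54 CPM in NR and 5.96, 5.26, 5.06 and 6.23 CPM in DR, in the same order of groups. Here too the ranges were separate (−0.84, SE 0.18, adjusted p = 0.000657). In both types Dbp passed under every alternative and without each library in turn. All 15 types come from the same libraries, so a sign shared by all of them is not replication.

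In astrocytes, where Dbp was highest, it went from 83.2, 73.7, 77.6 and 54.9 CPM in NR to 50.1, 59.7, 34.1 and 38.6 CPM in DR. One DR library, the GR-Con male, lay above the lowest NR library, so the ranges overlapped (−0.66, SE 0.15, adjusted p = 0.00438). This call was lost with the quasi-likelihood test and without either DR GR-KO library. In OPC the values were 15.2, 11.8, 21.2 and 13.3 CPM in NR and 4.00, 8.47, 7.24 and 6.93 CPM in DR, on 9 to 45 UMIs per library (−1.14, SE 0.26, adjusted p = 0.00278). DR lay wholly below NR in OPC as well, and the call held without each library in turn (DESeq2 gave no adjusted p).

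The other calls of Dbp were Sst (−1.01, SE 0.26, adjusted p = 0.0177), Vip (−0.82, SE 0.21, 0.0183), L5NP (−0.79, SE 0.21, 0.0159) and L6CT (−0.56, SE 0.21, 0.0498). All 4 DR libraries lay below all 4 NR libraries in 5 types (L4, Lamp5, OPC, Pvalb and Vip), against 6.11% of all pairs tested. The 7 types without a call ran from −0.67 in Lamp5 (adjusted p = 0.0506) to −0.27 in L5PT. By class, the median was −0.83 over the 4 inhibitory types and −0.50 over the 8 excitatory types.

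**Figure D3:**
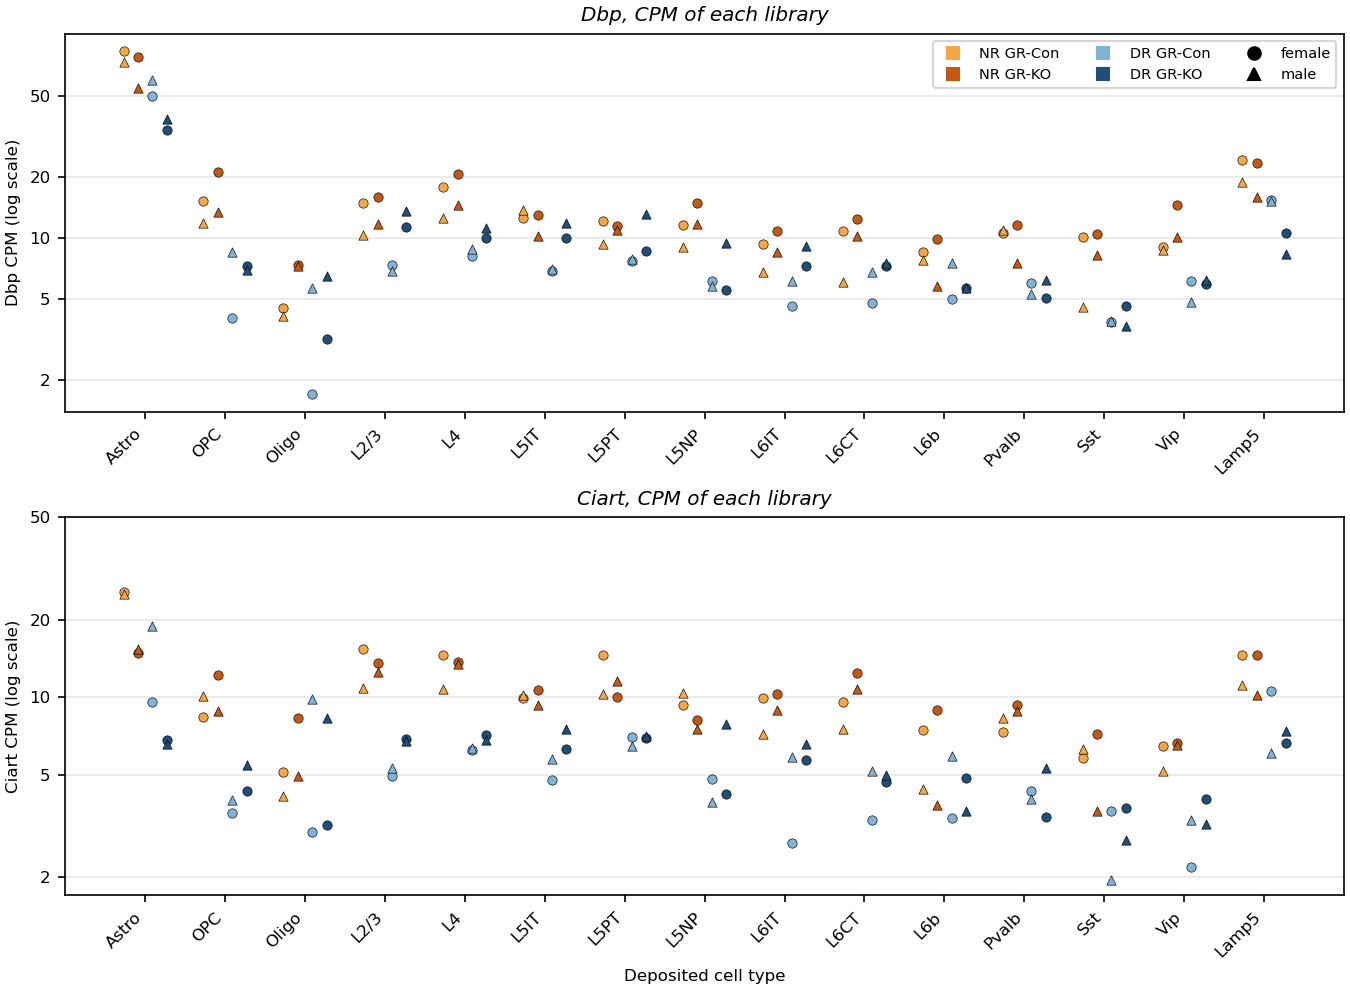
CPM on a log axis of Dbp (top) and Ciart (bottom) in each of 8 libraries, by cell type. Colour marks the group and shape the sex. Dbp in L4 runs from 8.12 to 11.2 CPM in the 4 DR libraries and from 12.6 to 20.6 CPM in the 4 NR libraries.

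Arntl moved the other way in L2/3, the most abundant type. It read 75.9, 94.8, 69.3 and 79.8 CPM in NR and 115, 108, 116 and 121 CPM in DR, with no overlap (0.52, SE 0.12, adjusted p = 0.00035). Its estimate was above 0 in 11 of 15 types, and it passed in no other. Clock, its partner, rose in L6CT from 129, 135, 132 and 148 CPM to 161, 157, 165 and 173 CPM (0.28, SE 0.08, adjusted p = 0.0126). In L4 it went from 116, 122, 121 and 132 CPM to 141, 132, 149 and 148 CPM (0.25, SE 0.08, adjusted p = 0.0244). Its estimate was above 0 in 14 of 15 types, and no estimate exceeded 0.28. The Clock calls were the less stable ones, since L4 passed in 2 and L6CT in 3 of the 8 fits that each left out 1 library, while Arntl in L2/3 passed in all 8.

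Per3 was below 0 in 14 of 15 types. In L6IT it fell from 47.9, 57.3, 52.3 and 55.0 CPM to 36.7, 42.3, 44.2 and 45.1 CPM (−0.34, SE 0.11, adjusted p = 0.0271). In Lamp5 it fell from 37.5, 28.0, 26.1 and 32.8 CPM to 22.5, 23.5, 16.1 and 19.4 CPM (−0.54, SE 0.16, adjusted p = 0.0344). The ranges were separate in both, and neither passed the quasi-likelihood test. Oligodendrocytes were the exception, with 17.3, 22.4, 23.9 and 23.2 CPM in NR and 12.8, 44.3, 34.7 and 37.7 CPM in DR. That difference did not pass (0.59, adjusted p = 0.333), and the DR GR-Con female library was again the one apart.

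Several measures moved with rearing beside these genes. Astrocyte markers (Aqp4, Gja1, Slc1a3) in oligodendrocytes summed to 87.6 to 97.3 CPM in NR and 55.1 to 77.1 CPM in DR. Excitatory markers in inhibitory types summed to 24.5 to 60.7 CPM in NR and 17.1 to 34 CPM in DR, ranges that overlap. In excitatory types, by contrast, astrocyte markers were nearly the same, at 7.59 to 15 CPM in NR and 7.50 to 16.6 CPM in DR. Egr1, an immediate early gene, was lower in DR in all 15 types by its estimate and passed in 5. Their part in the result was not tested.

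Within GR-Con alone (2 libraries against 2), 5 of 150 pairs passed in DR against NR (background 2.25%), all lower. They were Dbp in L5IT (−0.92, adjusted p = 0.000262), Pvalb (−0.94, 0.00114), L2/3 (−0.87, 0.00496) and L4 (−0.83, 0.0103), and Per2 in L5NP (−0.74, 0.0327). By the quasi-likelihood test the call in L5IT alone was left (background 0.495%). Within GR-KO, 6 of 174 pairs passed (background 3.66%). Dbp was lower in astrocytes (−0.80, adjusted p = 0.00106), OPC (−1.21, 0.0283), L6CT (−0.60, 0.0335) and L4 (−0.66, 0.0459), while Arntl in L2/3 (0.72, 0.000195) and Per3 in oligodendrocytes (0.64, 0.00596) were higher. The quasi-likelihood test left 2 of the 6, Dbp in astrocytes and OPC (background 0.857%), and 1 passed as a contrast from a fit of all 8 libraries. With sex as a term 11 passed (background 6.18%). The estimate of Dbp was below 0 in 15 of 15 types tested in GR-Con and in 16 of 16 in GR-KO. In GR-Con 1 pair passed without the NR GR-Con female library (background 0.900%), 3 without the NR GR-Con male (0.750%), 8 without the DR GR-Con female (3.28%) and 15 without the DR GR-Con male (5.2%). In GR-KO 1 pair passed without the DR GR-KO female (1.33%) or male (0.826%) library and 29 without the NR GR-KO male library (6.15%). These 2 contrasts share libraries with the one over both genotypes.

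Other genes of the clock were read from a list of 19, and 32 of 258 pairs passed in DR against NR (11 higher, 21 lower), against the same 5.40% background. By the quasi-likelihood test 17 passed (background 3.48%), and without 1 library the count ran from 11 without the DR GR-KO male (background 2.47%) to 41 without the NR GR-KO male (5.61%). It was 14 without the NR GR-KO female (3.57%), 17 and 20 without the NR GR-Con female (4.06%) and male (3.01%), 21 without the DR GR-Con female (4.55%) and 18 without the DR GR-KO female library (3.79%). Ciart (CHRONO), a repressor of the CLOCK and ARNTL pair, fell in 11 types with a median of −0.89. In L4 it went from 14.6, 10.7, 13.7 and 13.5 CPM to 6.27, 6.36, 7.11 and 6.82 CPM (−0.95, adjusted p = 1.15e-10). In L2/3 it went from 15.4, 10.9, 13.6 and 12.5 CPM to 4.96, 5.32, 6.89 and 6.79 CPM (−1.15, adjusted p = 1.81e-09). Usp2, a deubiquitinase, fell in 6 types (L2/3, L5IT, L6CT, L6IT, Lamp5 and Pvalb) and its estimate was below 0 in 15 of 15. Npas2, a relative of Clock, rose in L2/3, Lamp5 and Vip (up to 0.46). Hlf, which like DBP is a PAR bZIP factor, rose in L2/3 (0.61) and L5PT (0.52) and fell in Lamp5 (−0.45). In L2/3 Hlf read 77.6, 79.6, 71.6 and 77.1 CPM in NR and 117, 77.7, 139 and 142 CPM in DR, so the ranges overlapped and the DR GR-Con male library lay within the NR range. In L5PT the ranges of Hlf overlapped too (22.4 to 35.9 CPM in NR, 31.9 to 49.5 CPM in DR), and in Lamp5 they were separate (70.8 to 91.4 CPM in NR, 49.2 to 61.7 CPM in DR).

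GR-KO was set against GR-Con to ask whether the receptor in astrocytes bore on these genes, in the astrocytes and in the cells around them. Over both rearings (4 against 4, rearing as a term), 2 of 150 pairs passed (background 0.395%), and both were in astrocytes, where 4.80% of 14402 genes passed. Per1 fell and Arntl rose. The same 2 passed with the quasi-likelihood test (background 0.196%) and with DESeq2. The count was 1 without the DR GR-KO female library (background 0.320%), 6 without the DR GR-Con female library (0.712%) and 14 without the NR GR-KO female library (0.760%).

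**Figure D4:**
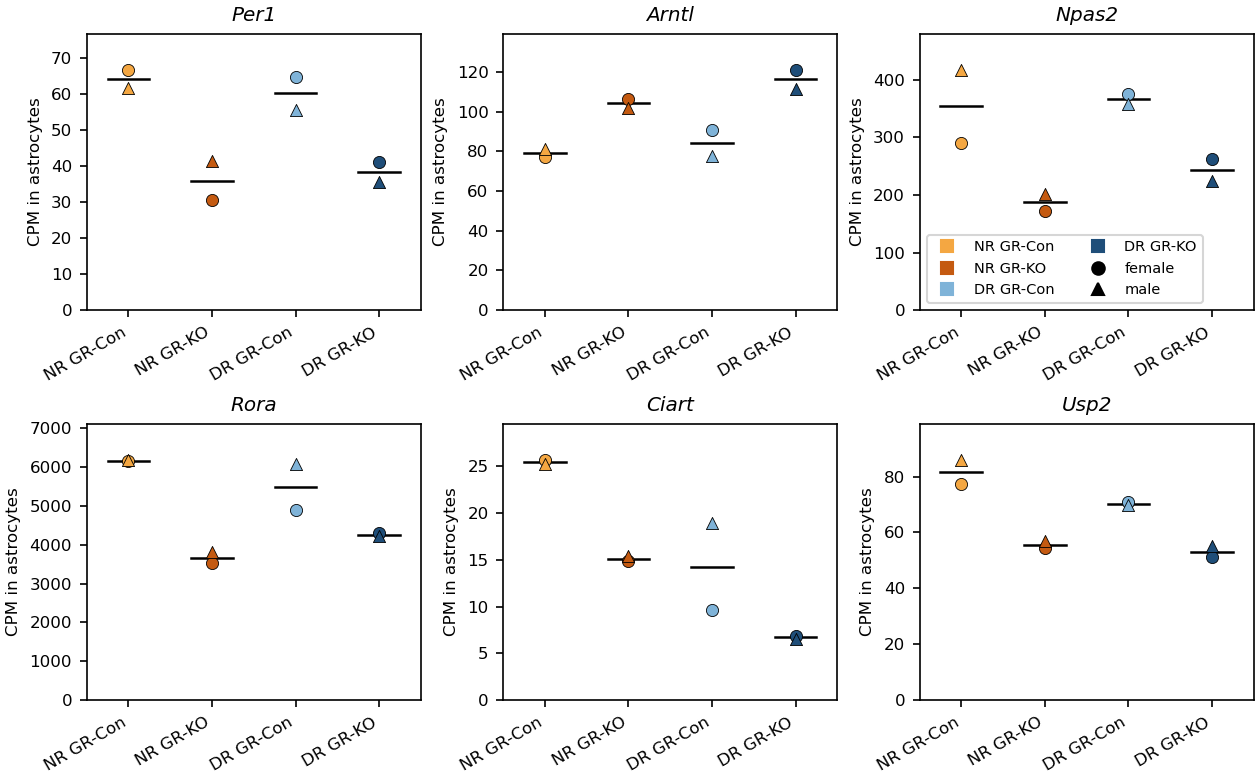
CPM in astrocytes of Per1, Arntl and 4 related clock genes in each library, by group, on axes that start at 0. Shape marks the sex and the black line the mean of 2 libraries. Per1 runs from 30.5 to 41.4 CPM in GR-KO and from 55.6 to 66.8 CPM in GR-Con.

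Per1 in astrocytes read 66.8, 61.6, 64.8 and 55.6 CPM in GR-Con (NR female, NR male, DR female, DR male) and 30.5, 41.4, 41.0 and 35.5 CPM in GR-KO. All 4 GR-KO libraries lay below the lowest GR-Con library. The log2 fold change was −0.77 (SE 0.14, adjusted p = 4.32e-06, 0.586 times the GR-Con level), and it passed under every alternative and without each library. Arntl read 77.4, 81.1, 90.9 and 77.7 CPM in GR-Con and 107, 102, 121 and 111 CPM in GR-KO. The groups were separate here too (0.41, SE 0.11, adjusted p = 0.00607, 1.33 times), and the call was lost only without the DR GR-KO female library.

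No other clock gene passed in astrocytes. Dbp stood at −0.44 (adjusted p = 0.072), Nr1d1 at −0.61 (0.297) and Per2 at −0.37 (0.531). Without the DR GR-Con female library, the one with low Per2 and Per3, 4 more genes passed in astrocytes as lower in GR-KO: Per2 (−0.59), Dbp (−0.46), Per3 (−0.32) and Cry2 (−0.28). In that fit 0.712% of all pairs passed, and with all libraries 4.80% of astrocyte genes did. Excitatory markers in astrocytes summed to 35.5 to 57.4 CPM in GR-Con and 41.7 to 66.0 CPM in GR-KO, against 533 to 615 CPM in excitatory types themselves. Fkbp5, a target of the receptor, was at −2.32 in the same astrocytes.

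Among the related genes, 5 of 258 pairs passed (background 0.395%), and 9 without the NR GR-KO female library (background 0.760%). Of the 5, 4 were in astrocytes and all lower there (4.80% of astrocyte genes passed). Npas2 read 291, 418, 376 and 358 CPM in GR-Con and 173, 202, 263 and 225 CPM in GR-KO (−0.78, adjusted p = 3.58e-05). Usp2 read 77.2, 86.0, 70.9 and 69.7 CPM against 54.3, 56.9, 51.1 and 55.3 CPM (−0.51, adjusted p = 0.000187). Both were separate between genotypes in all 8 libraries. Ciart read 25.7, 25.2, 9.59 and 19.0 CPM against 14.8, 15.4, 6.82 and 6.59 CPM, which overlap because the DR GR-Con female library was low (−0.94, adjusted p = 0.000564). Rora, an activator at ROR elements, read 6144, 6184, 4892 and 6086 CPM against 3528, 3802, 4298 and 4219 CPM (−0.58, adjusted p = 0.00209), again without overlap. The fifth, Hlf in L5PT, was higher (0.48) and is named after its value was seen.

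In neurons, Per1 passed in no type (likelihood ratio test, lowest adjusted p = 0.723). Its estimate in GR-KO was above 0 in all 12 neuron types, from 0.26 to 0.71, but these types share the same libraries. In most of them the NR GR-KO female library lay below the NR GR-Con female one, though not in L5NP or Vip. Examples are L2/3 (13.4 against 16.3 CPM) and L6CT (11.4 against 14.1 CPM). In L4 Per1 read 20.3, 23.5, 28.3 and 19.7 CPM in GR-Con and 15.3, 43.8, 33.0 and 29.6 CPM in GR-KO. The GR-KO group held both the lowest library (NR female) and the highest (NR male, the one with high immediate early genes). Without the NR GR-KO female library, where 0.760% of all pairs passed, Per1 passed as higher in 7 neuron types (L4, L6CT, L6IT, L6b, Pvalb, Sst and Vip) and Per2 in 4 (L2/3, L4, L6CT and Sst), still with Per1 lower in astrocytes (−0.66). Without the NR GR-KO male library neither passed in any neuron type. Cre was also seen in excitatory types of GR-KO libraries, at 0.745 to 3.70 CPM and highest in that NR male library, and at 0 in GR-Con.

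**Figure D5:**
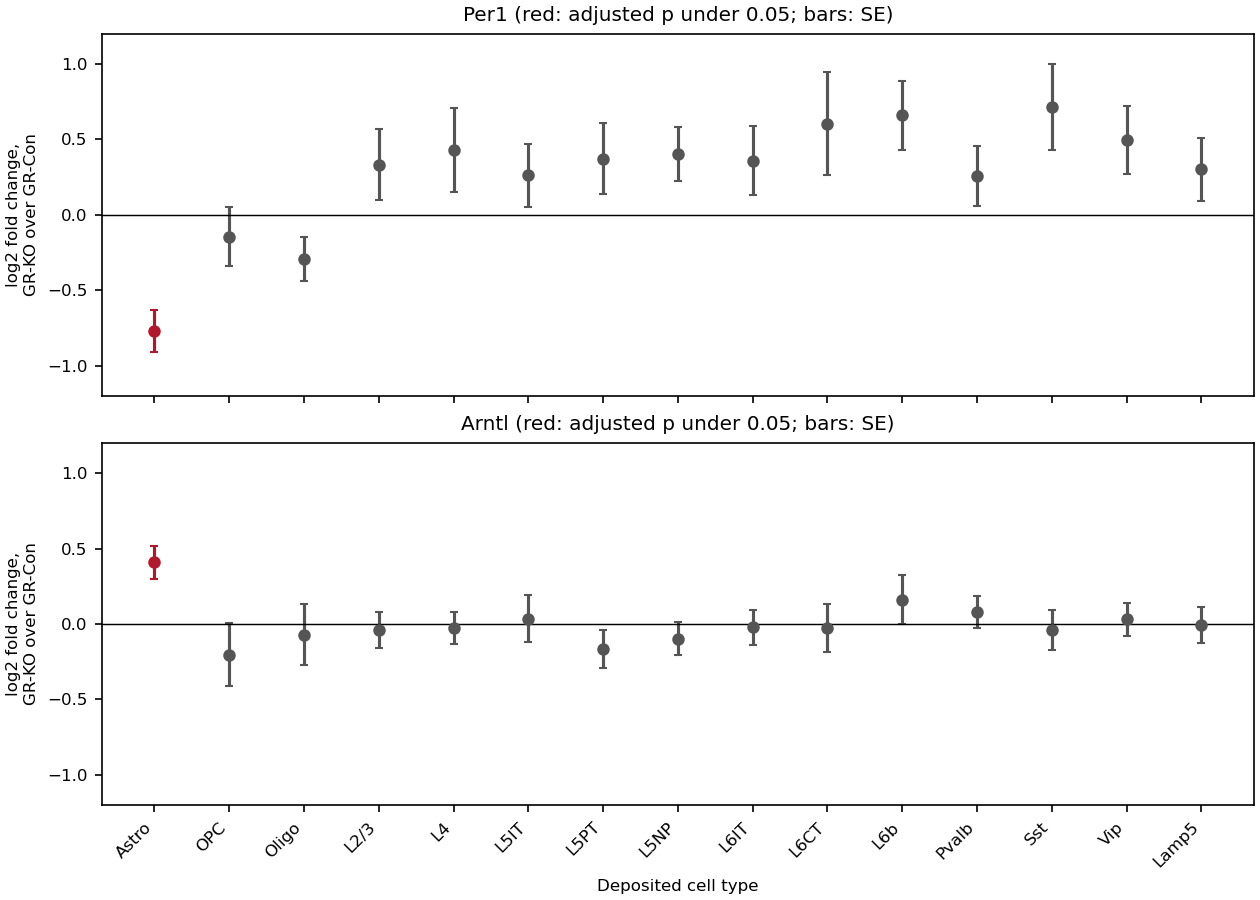
Log2 fold change of GR-KO over GR-Con over both rearings for Per1 (top) and Arntl (bottom) in 15 cell types. Points are estimates, bars 1 SE, and red an adjusted p under 0.05. Per1 is at −0.77 in astrocytes and between 0.26 and 0.71 in the 12 neuron types.

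The level in astrocytes was also set against that in excitatory types within each library, as the log2 ratio of astrocyte CPM to excitatory CPM. This was done after the values were seen and is a description with no test. For Per1 the ratio was 1.73 ± 0.16 in GR-Con and 0.67 ± 0.39 in GR-KO (SD, n = 4 each), a difference of −1.06, and for Arntl it was −0.27 ± 0.11 and 0.21 ± 0.18, a difference of 0.48. The 4 GR-KO libraries lay below all GR-Con libraries for Per1, Dbp (−0.81) and Cry1 (−0.33) and above them for Arntl, which is 4 of 10 genes against 6.25% of 14311 genes that do not overlap in either direction. The groups overlapped for the other 6 genes, from −0.91 for Nr1d1 to 0.05 for Clock. For Cry1 the gap was narrow, at 0.636002 in the DR GR-KO male and 0.63645 in the NR GR-Con male library. Astrocyte CPM alone overlapped between genotypes for Cry1 and Dbp (Dbp 77.6 CPM in NR GR-KO female, 50.1 CPM in DR GR-Con female). Excitatory Per1 was 35.5 CPM in the NR GR-KO male library, whose ratio was 0.22, against 13.5 to 26.7 CPM in the others.

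Within each rearing (2 libraries against 2), NR GR-KO against NR GR-Con gave 2 calls in 168 pairs (background 0.804%), both in astrocytes, where the background was 7.11%. Per1 fell by 0.91 on the log2 scale (adjusted p = 5.02e-06) and Per2 by 0.49 (adjusted p = 0.0301), from 55.6 and 67.8 CPM to 41.8 and 50.4 CPM. Per2 was lost with the quasi-likelihood test, DESeq2, no filter on low counts and the contrast from a fit of all 8 libraries, and without the NR GR-Con male or the NR GR-KO female library. The quasi-likelihood test called Per1 alone (background 0.361%). With sex as a term 7 pairs passed (background 1.84%), and 14 without the NR GR-KO female library (2.16%).

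DR GR-KO against DR GR-Con gave 7 calls in 150 pairs (background 0.513%), all higher and all in neurons. They were Nr1d1 in L2/3 (0.86, adjusted p = 0.00139) and L5IT (0.84, 0.0216), Dbp in L2/3 (0.86, 0.0016), Cry1 (0.89, 0.00641) and Per2 (0.89, 0.0277) in Sst, Per1 in L6b (0.92, 0.0312) and Per2 in L4 (0.72, 0.0348). Nr1d1 in L2/3 read 4.38 and 4.25 CPM in DR GR-Con and 7.45 and 7.63 CPM in DR GR-KO. Per1, Per2 and Cry2 were above 0 in 12 of 12 neuron types, and Nr1d1 in 8 of 8 excitatory types. These types come from the same libraries, so the agreement of sign over types is not replication. In inhibitory types Nr1d1 was above 0 in 1 of 4, with estimates from −0.82 in Lamp5 to 0.21 in Pvalb that did not pass. In astrocytes Per1 was at −0.62 (adjusted p = 0.232). None of the 7 passed the quasi-likelihood test, which called 0.00431% of all pairs, and 37 of the 150 had an unadjusted p under 0.05 by it, against 7.10% of all pairs. With sex as a term 12 passed (background 1.16%). The number of calls was 15 without the DR GR-Con female (background 2.05%), 18 without the DR GR-Con male (3.23%), 0 without the DR GR-KO female (0.116%) and 1 without the DR GR-KO male library (0.210%). Whether the genotype difference in NR differed from that in DR was tested as an interaction, and 0 of 150 pairs passed by edgeR's likelihood ratio test, its quasi-likelihood test or DESeq2 (background 0.181%), with 13 pairs at an unadjusted p under 0.05 by the first, against 5.40% of all pairs at that level. With sex as a term 1 pair passed, Nr1d1 in L5IT (background 0.590%). Without the DR GR-Con male library 4 pairs passed (background 0.984%), and 2 and 1 without the NR GR-KO female (0.624%) and male (0.450%) libraries.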

How the data were processed

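Nuclei of V1 were sorted on DRAQ5, and libraries were made with a 10x 3′ kit (v4). Per the labels and the study's methods, the authors aligned reads with Cell Ranger 8.0.1 to mm10 with an added EGFP annotation and annotated nuclei in Seurat 5.3.0 after removing doublets. The matrix deposited by the authors holds raw UMI counts per gene and nucleus, with no normalization. The deposited table of nuclei gives UMI counts, the percent of mitochondrial UMIs, library, sex, genotype, rearing and cell type. Libraries were put in groups by their names, which give rearing, vector and sex.

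UMIs were summed per library and deposited cell type. Cell types with at least 10 nuclei in every library of a fit were tested with edgeR 4.0.16 (R 4.3.3) by glmLRT after filterByExpr and TMM scaling, the kind of test the study used. P-values were adjusted by Benjamini-Hochberg over all genes of a cell type, and an adjusted p under 0.05 was called. SEs are the fold change over the root of the likelihood ratio. Each library is 1 mouse, so p-values rest on 2 or 4 mice per side. Likelihood ratio tests with 2 libraries per side called more genes here than quasi-likelihood tests did, and both counts are given. Library depth was 168632129 to 288774016 UMIs, and its ranges were separate in each contrast of 2 against 2. It was 206271296 and 231418195 in NR GR-Con and 263273814 and 280910168 in NR GR-KO (female, then male). In DR it was 288774016 and 252257090 in GR-Con and 202320161 and 168632129 in GR-KO. The part of depth in the calls was not tested. Alternatives were the quasi-likelihood test, DESeq2 1.42.0, RLE scaling, no filter on low counts, sex as a term, at least 50 nuclei, contrasts of 2 against 2 from a fit of all 8 libraries, CPM averaged over nuclei for levels, and each library left out. Astrocytes were set against neurons without a test.

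The 10 genes and all lists were chosen with earlier results of these data known. Named are the 10 genes where called and at the top and bottom of their order of types, up to 4 related clock genes with the most calls in each comparison over both genotypes or both rearings, and, for each of the 10, the 2 genes with the highest Pearson r over 20 types among genes with a mean of at least 1 CPM. Genes named outside this rule are Egr1 and Fkbp5 (side lists of immediate early genes and receptor targets) and Hlf in L5PT. Promoters are RefSeq windows of GRCm38.p6, the build that mm10 denotes.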

Additional observations from a re-analysis of the deposited data

How the results depend on the processing

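Of the 35 calls of a clock gene in a cell type over all contrasts, none changed direction under an alternative, and 12 passed with the quasi-likelihood test and 18 with DESeq2, which gave no adjusted p for 7. The calls that passed under every alternative that gave a value numbered 8, and 6 passed without each library in turn. The number of calls in NR GR-KO against NR GR-Con went from 2 to 1 (quasi-likelihood, DESeq2, no filter on low counts, and the contrast from a fit of all 8 libraries) and to 7 with sex as a term. In DR GR-KO against DR GR-Con it went from 7 to 0 (quasi-likelihood), 3 (DESeq2), 12 (sex) and 1 (all 8 libraries). In DR against NR it went from 5 to 1 (quasi-likelihood) and 2 (DESeq2) in GR-Con, and from 6 to 2 (quasi-likelihood), 11 (sex) and 1 (all 8 libraries) in GR-KO. Over both genotypes it went from 13 to 6 (quasi-likelihood) and 8 (DESeq2), with related genes from 32 to 17 (quasi-likelihood). The interaction went from 0 to 1 with sex as a term. Over both rearings the genotype count was 2 under each alternative.

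Leaving out each library gave 1 to 14 calls in NR GR-KO against NR GR-Con (14 without the NR GR-KO female), 0 to 18 in DR GR-KO against DR GR-Con, 1 to 15 and 1 to 29 in DR against NR in GR-Con and GR-KO, 4 to 17 over both genotypes, 1 to 14 for genotype over both rearings and 0 to 4 for the interaction. Related genes ranged from 11 (without the DR GR-KO male) to 41 for rearing and from 4 to 9 for genotype (5 with all libraries, 9 without the NR GR-KO female). With 1 library on a side, that library is assumed to vary like the others. The cause was not tested. No paired analysis was possible because the library names carry the sex and not the replicate number of the labels. Each group holds 1 female and 1 male, so sex as a term is a block on sex. Astrocytes were the top type for 8 genes, and for 7 when CPM was averaged over nuclei or without the DR GR-Con male library. Against all 12 neuron types in place of the excitatory ones, the genotype differences of the astrocyte ratio were −1.07 (Per1) and 0.47 (Arntl), an alternative chosen after seeing the data. Low levels limit several pairs, since Dbp in OPC rests on 9 to 45 UMIs per library.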

Other observations

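The 5 cell types that were too sparse in some libraries for a test (over both genotypes) differed in their clock genes. The vascular types were high for some of the genes and not for others. In smooth muscle cells and pericytes (SMC-Peri, 6 libraries with at least 10 nuclei) Per2 averaged 92.3 ± 34.4 CPM (SD over libraries) and Dbp 45.6 ± 20.8 CPM, on 7 to 29 and 2 to 18 UMIs per library. In vascular leptomeningeal cells (VLMC, 7 libraries) Per3 averaged 134 ± 38.8 CPM and Nr1d2 141 ± 48.7 CPM. Per1 was 49.4 ± 13.9 CPM in endothelial cells (Endo, 7 libraries), and Cry1 was 38.5 ± 16.3 CPM there. Cry1 was also above astrocytes (26.5 CPM) in SMC-Peri (37.3 CPM) and VLMC (32.1 CPM). Other genes were lower in Endo, SMC-Peri and VLMC than in astrocytes. Arntl was 57.8, 56.5 and 61.7 CPM (astrocytes 96.0), Cry2 64.7, 76.6 and 80.0 CPM (174), and Nr1d1 9.97, 8.37 and 7.17 CPM (27.2). Microglia (Micro, 5 libraries) held 177 ± 8.79 CPM of Clock and 10.8 ± 4.47 CPM of Per2. In chandelier cells (ChC) the 3 libraries with at least 10 nuclei were all DR. Clock was 182 ± 31.6 CPM there on 27 to 49 UMIs per library, while Per2 and Per3 rested on 2 UMIs each, all from 1 library, which gives no level.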
